A study of Homo sapiens with 4 samples.

Results

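TAF9B is the gene described here, 1 of 852 gene symbols that the authors' deposited table of changed genes pairs with probe sets, out of 33297 probe sets measured on each array. It was taken as the line of that table that carries the symbol TAF9B, on probe set 8173732, which has no further symbol. The samples were asynchronously growing cultures of HCT116, an established human colorectal carcinoma line. In 2 samples (SH Ctrl, genotype wild-type, called shControl here) the cells had been transfected with a control short hairpin RNA (shRNA), and in the other 2 (SH PCAF, genotype PCAF knock-down, called shPCAF) with an shRNA against PCAF. Total RNA of each went onto 1 Affymetrix array. The labels give no time after transfection and no clone, and do not say whether replicates came from separate cultures, so every spread below is that between arrays and may be technical.

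TAF9B encodes a histone-fold protein closely related to TAF9. TAF9 and TAF9B pair through the histone fold with TAF6 in TFIID, the factor that recognises core promoters, or with TAF6L in SAGA, a coactivator complex that acetylates and deubiquitinates histones. PCAF (KAT2B), the target of the shRNA, and its paralogue GCN5 (KAT2A) are the alternative acetyltransferase subunits of SAGA and of the related ATAC complex, so the silenced gene and TAF9B encode subunits of the same complex. In mouse, TAF9B has been found with PCAF in motor neurons made from embryonic stem cells, where neuronal genes depend on it.

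The promoter that RefSeq (build GRCh38.p14) places upstream of TAF9B is shown to give the gene its genomic context. It covers the 250 bases before the annotated start, chrX:78139651-78139900 on the minus strand, and the capitals mark a GC box, read here as CCGCCC, the reverse complement of GGGCGG.
TAF9B promoter: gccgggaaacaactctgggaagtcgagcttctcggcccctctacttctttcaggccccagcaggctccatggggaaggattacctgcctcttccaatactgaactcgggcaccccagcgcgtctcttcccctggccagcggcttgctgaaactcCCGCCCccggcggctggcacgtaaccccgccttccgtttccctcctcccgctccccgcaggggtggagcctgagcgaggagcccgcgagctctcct
These bases are 66.0% G or C against a median of 58.0% over 27305 RefSeq promoters of the same length, and hold 18 CpG against a median of 11. The search covered both strands. GGGCGG occurs once here and in 42.3% of all these promoters, and CCAAT once here and in 33.0%. The TATA box TATAAA was not found in this window (11.1% of promoters hold it), nor were the cell cycle element TTTGAA (13.6%) and the E-box CACGTG (6.49%). No motif searched overlaps another match. A match is a description of letters, and promoter activity was not measured on these arrays.

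TAF9B was lower in shPCAF cells on both arrays. Its log2 signal was 11.22 and 11.28 in shControl replicates 1 and 2, and 9.72 and 9.70 in shPCAF replicates 1 and 2. The groups did not overlap, and the lowest shControl signal lay 1.51 above the highest shPCAF signal. On a linear scale the same signals were 2392 and 2483 in shControl and 841 and 835 in shPCAF. The mean log2 signal went from 11.25 ± 0.04 (SD, n = 2) to 9.71 ± 0.01 (SD, n = 2), a log2 difference (shPCAF minus shControl) of -1.54 with a moderated standard error (SE) of 0.067 from limma, or a 2.91-fold lower signal. Fewer cells with the RNA and less RNA per cell cannot be told apart in such cultures. The table that supplied the gene was selected on these same arrays, so its fall is given as a description and without a test. The authors' deposited table gives it 3.30 under the heading fold change and a p of 0.00814, both computed on these arrays, and the first is not a fold of the deposited signals, since over the 852 lines it was a median of 2.14 times the size of the log2 difference. Of the 295 down lines in the authors' deposited table, 1 has a larger value, and 2 lines, TAF9B among them, share this one.

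**Figure D1:**
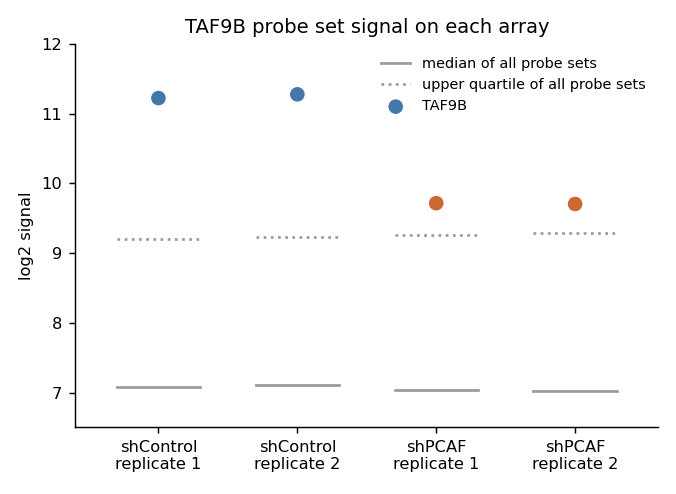
Log2 signal of the TAF9B probe set (points) on each of the 4 arrays, blue for shControl and orange for shPCAF, with the median (solid line) and upper quartile (dotted line) of all probe sets on that array. The shControl signals of 11.22 and 11.28 stand clear of the shPCAF signals of 9.72 and 9.70, and all 4 lie above the upper quartile of their array.

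Each pairing of a shControl with a shPCAF array gave much the same size. The fold by which the shControl signal exceeded the shPCAF signal was smallest, 2.84, between the arrays numbered 1 and largest, 2.98, between those numbered 2. The arrays of a group differed by 0.054 (shControl) and 0.011 (shPCAF) on the log2 scale. The pooled within-group SD of TAF9B was 0.028, against a median of 0.074 over the 2763 probe sets whose mean signal lay within 0.5 of its own, of which 10.6% had a smaller one. TAF9B was thus among the probe sets whose replicate arrays lay closest together, which selection of the authors' table on these arrays may have favoured. The moderated SE is wider than the spread of TAF9B itself because limma draws each variance towards that of all probe sets.

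The probe set remained bright in both groups. Its signal exceeded that of 92.5% and 92.7% of probe sets on the shControl arrays, and of 80.0% and 79.5% on the shPCAF arrays. It was 4.14 and 4.18 above the array's median log2 signal in shControl, and 2.68 and 2.68 above it in shPCAF. The upper quartiles of the shPCAF arrays were 9.25 and 9.29, so TAF9B signal remained above them after its fall. These percentiles place a signal on its array and say nothing of the amount of TAF9B RNA relative to that of other genes.

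A second probe set, 8176263, held exactly the values of the TAF9B probe set on all 4 arrays. The files give it no gene name, and none is given to it here. Such repeats were not rare, as 994 of the 33297 probe sets (2.99%) shared all 4 values with at least 1 other, and 9 of the 759 named probe sets did. The second probe set is not a second measurement of TAF9B. Whether the TAF9B probes also detect RNA of its paralogue TAF9 was not tested.

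Few probe sets fell further than TAF9B. Over all 33297 it ranked 14 in order of falls, and 18 probe sets in all, TAF9B included, fell by 1.5 or more on the log2 scale, whereas 85 rose by at least as much as TAF9B fell. Of the 13 probe sets with a larger fall, 8 lie among the 4201 lowest identifiers, and 2 carry a single gene symbol. The files do not say what this run of lowest identifiers is, though the authors' deposited table names some of its probe sets. With that run left out, a choice made after seeing the data, TAF9B ranked 6. Among the 2763 probe sets of like signal, 3 fell by at least as much, among them TAF9B and its repeat, while the median difference there was -0.01. Left out in turn, the arrays moved the rank: it was 23 without shControl replicate 1, 43 without shPCAF replicate 2, and 17 and 10 without shControl replicate 2 and shPCAF replicate 1. The difference itself stayed between -1.57 and -1.51 in these fits.

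**Figure D2:**
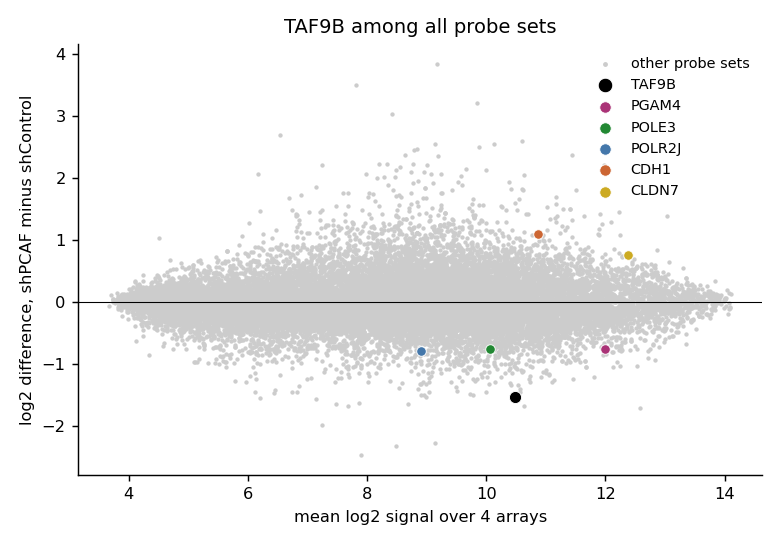
Difference in log2 signal (shPCAF minus shControl, vertical axis) against the mean log2 signal over the 4 arrays (horizontal axis) for all 33297 probe sets in grey, with TAF9B in black and the other named list members and the neighbouring gene PGAM4 in colour. TAF9B, at -1.54, lies near the lower edge of the cloud, below POLE3, POLR2J and PGAM4, whose differences lie between -0.79 and -0.76.

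Among the 711 probe sets with a single symbol, of which 218 were lower, TAF9B ranked 3 in the order of falls. The genes directly above it were H2BC14, a replication-dependent H2B histone, at -1.72, and NMU, which encodes the neuropeptide neuromedin U, at -1.54. Directly below came CDCA3, a cell division gene, at -1.51 and GAL, which encodes the neuropeptide galanin, at -1.41. The differences of NMU and CDCA3 lay 0.00047 and 0.034 from that of TAF9B, within its SE of 0.067, so the order of these 3 genes is not settled by the arrays. H2BC14 lay 0.18 and GAL 0.13 from it, with SEs of their own of 0.090 and 0.12. Their order against TAF9B was not tested, so the rank of 3 is not exact.

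The genes most like TAF9B were found by the Euclidean distance between profiles, taking each probe set's 4 values minus their own mean. With 4 arrays in 2 groups, this distance compares little more than the size and direction of the difference, so these genes are also among the largest falls. NMU was nearest at 0.13, with log2 signals of 9.80 and 9.73 in shControl and 8.16 and 8.29 in shPCAF. CDCA3 followed at 0.15 (9.66 and 9.74, then 8.09 and 8.29, in the same order of arrays). As with TAF9B, neither gene's groups overlapped, which selection of the authors' table for change on these arrays favours. H2BC14 stood at 0.21, COMMD4, a COMM domain protein, at 0.23, SPAG5, the gene of the spindle protein astrin, also at 0.23, and GAL at 0.23. SPAG5 had the closest replicate arrays of the 6, with 11.02 and 11.08 in shControl and 9.72 and 9.76 in shPCAF, and its shPCAF signals were nearly those of TAF9B. GAL was the most scattered, with 11.18 and 11.37 in shControl and 9.99 and 9.75 in shPCAF. The table of promoters holds 5 of these 6 genes. Of the motifs searched, in the 250 bases before the start, CDCA3 has CCAAT, H2BC14 has CCAAT and TATAAA, COMMD4 has GGGCGG and CACGTG, SPAG5 has GGGCGG and NMU has none.

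**Figure D3:**
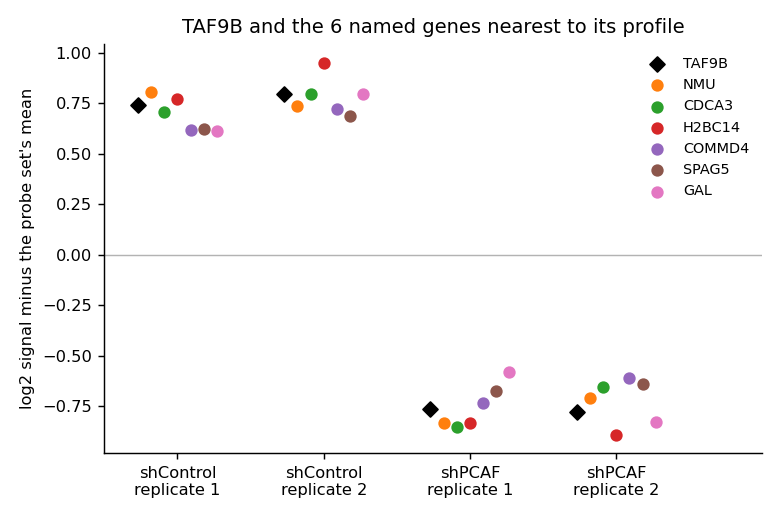
Log2 signal minus the probe set's own mean over the 4 arrays (vertical axis) for TAF9B (black diamonds) and the 6 named genes with the nearest profiles (coloured circles), by array and spread sideways for legibility. All 7 genes lie above 0 on the shControl arrays and below 0 on the shPCAF arrays.

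Partners of TAF9B could be followed only where the authors' deposited table names them. It names none of the other 23 genes of a 24-gene SAGA list, none of the other 16 TFIID subunits listed and none of 11 further paralogues of core promoter factors. No probe set is named for TAF9, KAT2B, KAT2A or CDKN1B, which encodes p27, the subject of the series title. The knockdown of PCAF therefore has no check here, and whether TAF9 moved with or against TAF9B was not analysed here. Absence from the table is no measurement of a gene.

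Beyond these complexes, 2 single genes of the transcription machinery lists had a named probe set, and both were lower. All 8 lists together held 124 genes besides TAF9B. POLE3, a histone-fold protein of DNA polymerase epsilon and of chromatin complexes, counted here with ATAC and with the other histone-fold proteins, had log2 signals of 10.42 and 10.46 in shControl and 9.68 and 9.68 in shPCAF. Its log2 signal fell by 0.76 with an SE of 0.066 (limma, Benjamini-Hochberg adjusted p = 0.0108). POLR2J, the RPB11 subunit of RNA polymerase II and the 1 gene named of 12 such subunits, had 9.24 and 9.36 in shControl and 8.46 and 8.56 in shPCAF. It fell by 0.79 with an SE of 0.083 (limma, adjusted p = 0.0131). In both genes the groups did not overlap, which the table's selection for change favours, and the share of all probe sets was not counted. Neither gene fell as far as TAF9B, whose difference was lower by 0.78 than that of POLE3 and by 0.75 than that of POLR2J. The general transcription factor list had 1 probe set, shared by the elongation factor TCEA1 and its pseudogene TCEA1P2 and 1.81-fold higher, which cannot be assigned to either. No gene of the 33 in the Mediator list was named. As background to these 2 calls, 12.9% of all probe sets passed limma's test, 7.05% higher and 5.85% lower in shPCAF. That both named genes passed says nothing about the lists, because the table had been selected for change on these arrays. For the same reason the p-values of these and the other named genes are no independent support for a change. Of the 4294 calls 54.6% were higher, and 68.0% were when each array was centred on its median. Without either shControl array no probe set passed (6848 and 6849 had an unadjusted p below 0.05 in limma), which includes POLE3 and POLR2J, and without shPCAF replicates 1 and 2 the calls numbered 1933 and 2363.

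The nearest genes on the X chromosome were looked up in RefSeq, 5 protein-coding genes on each side of TAF9B. Only PGAM4 of these 10 has a named probe set. PGAM4, an intronless copy of the glycolytic enzyme gene PGAM1, gave 12.40 and 12.36 in shControl and 11.60 and 11.64 in shPCAF. This was a fall of 0.76 with an SE of 0.067 (limma, adjusted p = 0.0108) that did not pass without either shControl array. As the table that names PGAM4 was selected for change on these arrays, this call says nothing about the neighbours of TAF9B. PGAM1, chosen after its values were seen, gave a closely similar pattern with 12.70 and 12.62 in shControl and 11.84 and 11.88 in shPCAF. The copies are near-identical in sequence, so the PGAM4 value may hold PGAM1 RNA, and it is uncertain as a reading of a gene beside TAF9B. PGK1, the direct neighbour, has no named probe set.

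Over the whole X chromosome, the table names 21 other genes on single-symbol probe sets. Of these 14 were higher and 7 lower, 33.3% lower, against 30.7% of all 711 single-symbol probe sets. The 7 include PGAM4, uncertain as a reading of an X-linked gene. The 14 include RPL9P7, whose probe set lies among the lowest identifiers. Lowest of the 21 was GLA, which encodes the lysosomal alpha-galactosidase A, at -1.28. It gave 10.28 and 10.19 in shControl and 8.94 and 8.96 in shPCAF. HCFC1, a chromatin-associated cofactor of transcription, was at -0.89. At the other end, SAT1, a polyamine-catabolising enzyme, was at 1.72. The named X-linked genes thus went both ways, and TAF9B lay below the lowest of the others.

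Of the cell type, 2 of 12 epithelial markers are named, both higher in shPCAF, where 7.05% of all probe sets were called higher and 493 of the 711 single-symbol probe sets were higher. As the table was selected for change on these arrays, nothing is read from this count. The E-cadherin gene CDH1 gave 10.23 and 10.39 in shControl and 11.56 and 11.26 in shPCAF (limma, adjusted p = 0.0154), and CLDN7, a tight junction claudin, gave 11.96 and 12.03, then 12.75 and 12.76 (limma, adjusted p = 0.0111). Neither passed without either shControl array. None of 8 fibroblast and 10 leukocyte or endothelial markers is named. The part of other cell types in the TAF9B result was not tested.

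Of the settings tried, only another scaling of the arrays could move the TAF9B difference beyond the spread of its replicates. The difference was -1.55 after quantile normalization and -1.48 when each array was centred on its median, a shift that follows from the lower medians of the shPCAF arrays. The median difference over all probe sets was -0.05, so that relative to it TAF9B lay at -1.49.

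**Figure D4:**
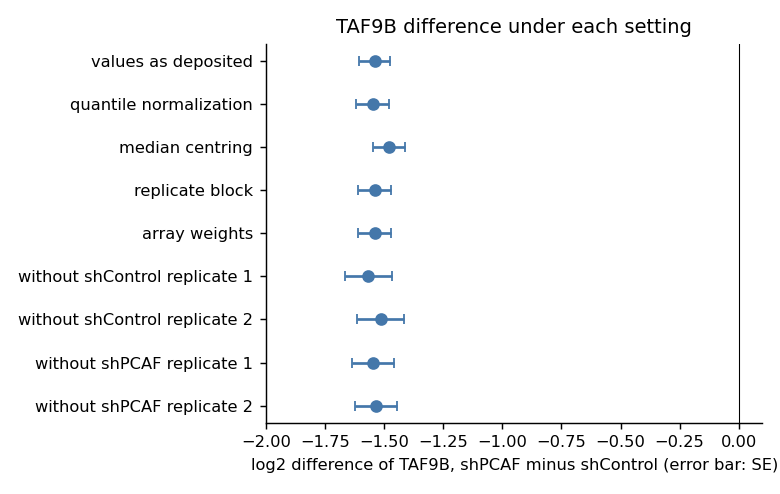
Log2 difference of TAF9B, shPCAF minus shControl (horizontal axis), with its moderated SE as error bar, for the values as deposited and each of 8 other settings. All points lie between -1.57 and -1.48, far from 0, and the error bars widen when an array is left out. The replicate block and array weights cannot move the point in this balanced design.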

How the data were processed

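Per the labels, biotinylated cRNA from total RNA of 4 HCT116 samples, grouped by title, was hybridised to Affymetrix arrays. The authors deposited log2 probe set signals for 33297 probe sets. The submitters' processing notes name limma and Affymetrix Expression Console; for summarization, normalization and build, the method is not given in the sources used here. The authors' deposited table adds symbols, a score headed fold change, which is not a fold of these signals, and p-values of an unstated test.

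Of its 852 symbols, 688 were current RefSeq symbols (GRCh38.p14, case ignored), 122 were updated from a synonym of a single gene, 12 were synonyms of several genes and 30 matched none. limma 3.58.1 (R 4.3.3, lmFit and eBayes, no covariate) was fitted on all probe sets, with Benjamini-Hochberg adjustment and a threshold of 0.05, and was tested on simulated data. Further steps used Python 3.11.15. The number of arrays limits the precision. Alternatives were quantile normalization, median centring, a filter on dim probe sets, array weights, a replicate block and leaving out each array.

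The members and lists were chosen with earlier results of these data known. Genes named are list members, the 6 nearest profiles, 2 genes on either side in the order of differences and RefSeq neighbours. PGAM1, GLA, HCFC1 and SAT1 were chosen after their values were seen.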

Additional observations from a re-analysis of the deposited data

How the results depend on the processing

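The log2 difference of TAF9B, -1.54 on the values as deposited, was -1.55 with quantile normalization and -1.48 with median centring. Only the latter shift exceeded the replicate SD of TAF9B, 0.028. Array weights and a replicate block cannot change the difference in this balanced design, and leaving out an array cannot move it beyond that SD. It ranged from -1.57 to -1.51 when each array was left out. Its rank among falls, 14, was 6 without the 4201 lowest identifiers (an alternative chosen after seeing the data) and 10 to 43 with each array left out, where single arrays enter unaveraged. With fewer probe sets or other scaling it was 12 to 14. The count of 4294 called probe sets was 0 to 2363 with each array left out, and between 4311 and 5709 under the other alternatives. Where groups do not overlap, as in the 6 genes that follow, only quantile normalization or median centring could reverse a difference. The other refits kept the deposited values. The differences of POLE3, POLR2J, PGAM4, PGAM1, CDH1 and CLDN7 kept direction in all 60 refits. Their calls were lost only in the 12 refits without a shControl array, the lone array of a group being assumed to vary like the others. The table that names these genes was selected for change on the arrays that every refit reused, so the refits are no independent support. With the replicate number as a block, the TAF9B difference was again -1.54 and 4584 probe sets were called. Deviations from group means correlated at 0.254 between arrays of like number, but with 2 pairs the samples share only a number. Depth does not apply to arrays, and signal over background was not used here.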
